A study of Drosophila melanogaster with 4 samples.

Results

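The genes described here encode the basic machinery of transcription: subunits of RNA polymerases I, II and III, the Mediator complex, the TATA-binding protein with its associated factors (together TFIID), the factors named TFIIA, TFIIB, TFIIE, TFIIF and TFIIS, and Ssb-c31a, a single-stranded DNA binding protein related to the PC4 coactivator. They were chosen by symbol (RpI, RpII, RpIII, MED or Taf followed by a digit, any symbol starting with TfII or Tbp, and Ssb-c31a) and by a mean normalised count above 0. The rule gave 56 of the 15682 genes in the authors' deposited table: 3 of polymerase I, 5 of polymerase II, 1 of polymerase III, 22 of Mediator, 14 of TFIID and 10 other factors. The remaining gene, Tbp-1, matched by name alone. It is Rpt5 in RefSeq, an ATPase of the proteasome and no part of TFIID. It is counted among the 56, as the rule requires, but in no complex. Another 3 matching genes, MED9, MED21 and MED23, were listed at 0 and are not among the 56.

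RNA came from follicle cells, the somatic epithelium of the Drosophila melanogaster ovary, in 4 libraries. Both groups carried UAS-CD8-GFP, a membrane-bound fluorescent protein. The 2 EGFR-activated libraries also carried UAS-EGFR-lambdatop, which encodes a constantly active receptor for epidermal growth factor, and the 2 control libraries did not. The design text calls the replicates biological, flies of both groups grew up at 18 °C and then spent 7 to 10 days at 29 °C as adults, and which driver expressed the transgenes is not stated.

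Polymerase I makes the large ribosomal RNA precursor, polymerase II makes messenger RNA, and polymerase III makes transfer RNA and other short RNAs. Each enzyme has a pair of large catalytic subunits and a set of smaller ones, some of which are built into more than one enzyme. At a polymerase II promoter TFIID and the other general factors place the enzyme, while Mediator carries signals from bound activators and repressors to it. These parts are used in all growing cells, and output of polymerases I and III is known to follow growth signalling.

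Every mean normalised count, log2 fold change (EGFR-activated over control, ± SE, 2 against 2 libraries), Wald p-value and adjusted p of a single gene below is from the authors' deposited table unless another scaling is named. That table holds no values per library, so the spread between replicates enters only through the SE. Over the 54 genes of the machinery with an adjusted p, the SE ran from 0.18 to 0.48 with a median of 0.26, and mean normalised counts ran from 113.2 to 6321. Egfr, the gene the transgene carries, was higher by 1.5 ± 0.35 on the log2 scale (adjusted p = 0.000177). The size factors behind the means, recovered from genes with a single read, were 1.46, 1.16, 0.786 and 0.773 and were not tied to groups.

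At an adjusted p under 0.05, 14 of the 54 rose in EGFR-activated cells, 0 fell and 40 did not pass the authors' DESeq2 test. That is 25.9% higher, against 18.0% higher and 17.5% lower over all 9409 genes tested, and against 21.9% higher and 18.6% lower over the 7256 whose mean was 100 or more, the range in which all 54 lie. At an unadjusted p under 0.05 there were 23 higher and 1 lower, the latter RpII215. The median fold change over the 56 genes was 0.40, beside 0.01 over all genes with a p-value and 0.11 over those with a mean of at least 100, and it turned to −0.53 when fold changes were centred on the cytoplasmic ribosomal protein genes, whose own median was 0.93. That centring lowers every gene by 0.93.

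**Figure D1:**
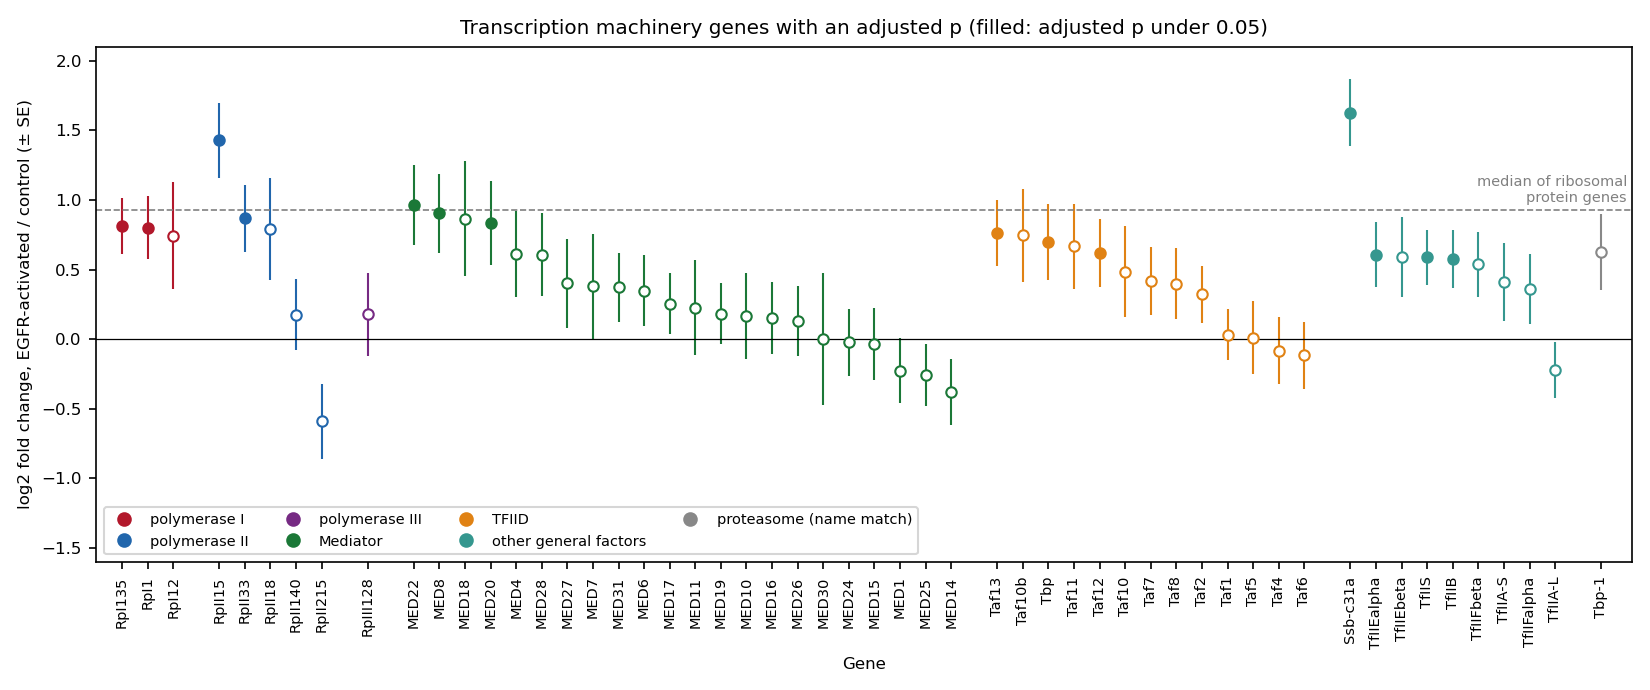
Log2 fold change of each of the 54 genes with an adjusted p (EGFR-activated over control, points ± SE), grouped by complex and ordered by size within each. Filled points passed an adjusted p of 0.05: 14 genes, all above 0. RpII215 lies lowest at −0.59, and the dashed line marks the ribosomal protein genes' median of 0.93.

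Of the 3 polymerase I subunits, 2 rose. RpI1 (RefSeq Polr1A), the largest catalytic subunit, rose by 0.80 ± 0.23 (mean 3597, adjusted p = 0.00229). RpI135 (Polr1B), its catalytic partner, rose by 0.81 ± 0.20 (mean 1230, adjusted p = 0.000355). RpI12 (Polr1H), a small subunit, was at 0.74 ± 0.39 and did not pass (mean 167, adjusted p = 0.121). The 3 values lay between 0.74 and 0.81, and their median of 0.80 was −0.13 relative to the ribosomal protein genes.

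The other 4 subunits that RefSeq names as parts of polymerase I stand in the authors' deposited table under other symbols, and all 4 rose. CG3756 (Polr1C) was higher by 1.38 ± 0.28 and l(2)37Cg (Polr1D) by 1.19 ± 0.37 (adjusted p = 1.64e-05 and 0.00663); polymerase III uses both as well. CG18600 (Polr1E) was higher by 0.94 ± 0.21 and CG13773 (Polr1F) by 1.05 ± 0.40 (adjusted p = 6.53e-05 and 0.0280). With them, 6 of 7 polymerase I subunits rose and the lowest of the 7 was RpI12. Tif-IA, the initiation factor that recruits polymerase I, rose by 0.95 ± 0.24 (adjusted p = 0.000739), or 0.02 relative to the ribosomal protein genes.

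Polymerase II subunits ran over a wide range, and 2 of 5 rose. RpII15 (Polr2I), a small subunit involved in start site choice and in cleavage of stalled transcripts, rose by 1.43 ± 0.27 (mean 933.7, adjusted p = 2.23e-06). RpII33 (Polr2C), an assembly subunit, rose by 0.87 ± 0.24 (mean 450.9, adjusted p = 0.00186). RpII18 (Polr2F), which all 3 polymerases share, was at 0.79 ± 0.37 and did not pass (adjusted p = 0.0790). RpII140 (Polr2B), the second largest subunit, was at 0.18 ± 0.25 (mean 2932, adjusted p = 0.634), with a 95% interval from −0.32 to 0.67. RpII215 (Polr2A), the largest, whose repeated tail is phosphorylated during transcription, was at −0.59 ± 0.27 and did not pass (mean 4807, adjusted p = 0.0728). The median of the 5 was 0.79, or −0.14 relative to the ribosomal protein genes.

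Among 7 further polymerase II entries with counts, 5 rose. Rpb8, Rpb10 and Rpb12 (Polr2H, Polr2L and Polr2K), which all 3 enzymes share, rose by 1.34 ± 0.21, 1.40 ± 0.26 and 1.22 ± 0.26 (adjusted p = 4.98e-09, 7.75e-07 and 2.72e-05). The shared subunit Rpb5 (Polr2E) rose by 0.87 ± 0.36 (adjusted p = 0.0437) and the assembly subunit Rpb11 (Polr2J) by 1.05 ± 0.30 (adjusted p = 0.00283). With p-values adjusted over every gene with a p-value, Rpb5 did not pass (adjusted p = 0.0585). Rpb7 (Polr2G) was at 0.57 ± 0.27 (adjusted p = 0.0880), and CG3773 (Polr2M), an associated factor and no core subunit, was at −0.26 ± 0.31 (adjusted p = 0.555). Rpb4 was listed at 0. Of the 7 subunits that serve more than one enzyme, 6 rose (5 without Rpb5), and the 7 ran from 0.79 to 1.40.

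Polymerase III has a single gene under the symbol rule. RpIII128 (Polr3B), its second largest subunit, was at 0.18 ± 0.30 (mean 433, adjusted p = 0.687), or −0.75 relative to the ribosomal protein genes. Of 7 further subunits examined with counts in the authors' deposited table, 2 rose, 0 fell and 5 did not pass. CG12267 (Polr3C) rose by 0.92 ± 0.30 and CG33051 (Polr3G) by 0.75 ± 0.31 (adjusted p = 0.00832 and 0.0462). The latter did not pass under that wider adjustment (adjusted p = 0.0619). The largest subunit, CG17209 (Polr3A), was at −0.05 ± 0.27 and Sin (Polr3E) at −0.24 ± 0.23 (adjusted p = 0.914 and 0.455), and CG33785 (Polr3K) was listed at 0. The initiation factor genes Brf and CG9305 (Bdp1) were at 0.23 ± 0.23 and −0.57 ± 0.27, neither past the test (adjusted p = 0.468 and 0.0869). Taken by enzyme, 6 of 7 polymerase I, 7 of 12 polymerase II and 2 of 8 polymerase III entries rose, with medians of 0.94, 0.87 and 0.35, or 0.01, −0.06 and −0.58 relative to the ribosomal protein genes. These are 85.7%, 58.3% and 25.0% higher, beside the 21.9% of all genes with a mean of 100 or more. The share of the 8 polymerase III entries, which leave out its shared subunits, is near that background. Under the wider adjustment, without Rpb5 and CG33051, 6 of 12 polymerase II and 1 of 8 polymerase III entries rose. The difference between enzymes was not tested. All 7 shared subunits, of which 6 rose as deposited, are counted under polymerase I or II. None is among the 8 polymerase III entries, although polymerase III uses them. The 12 polymerase II entries include CG3773, no core subunit.

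**Figure D2:**
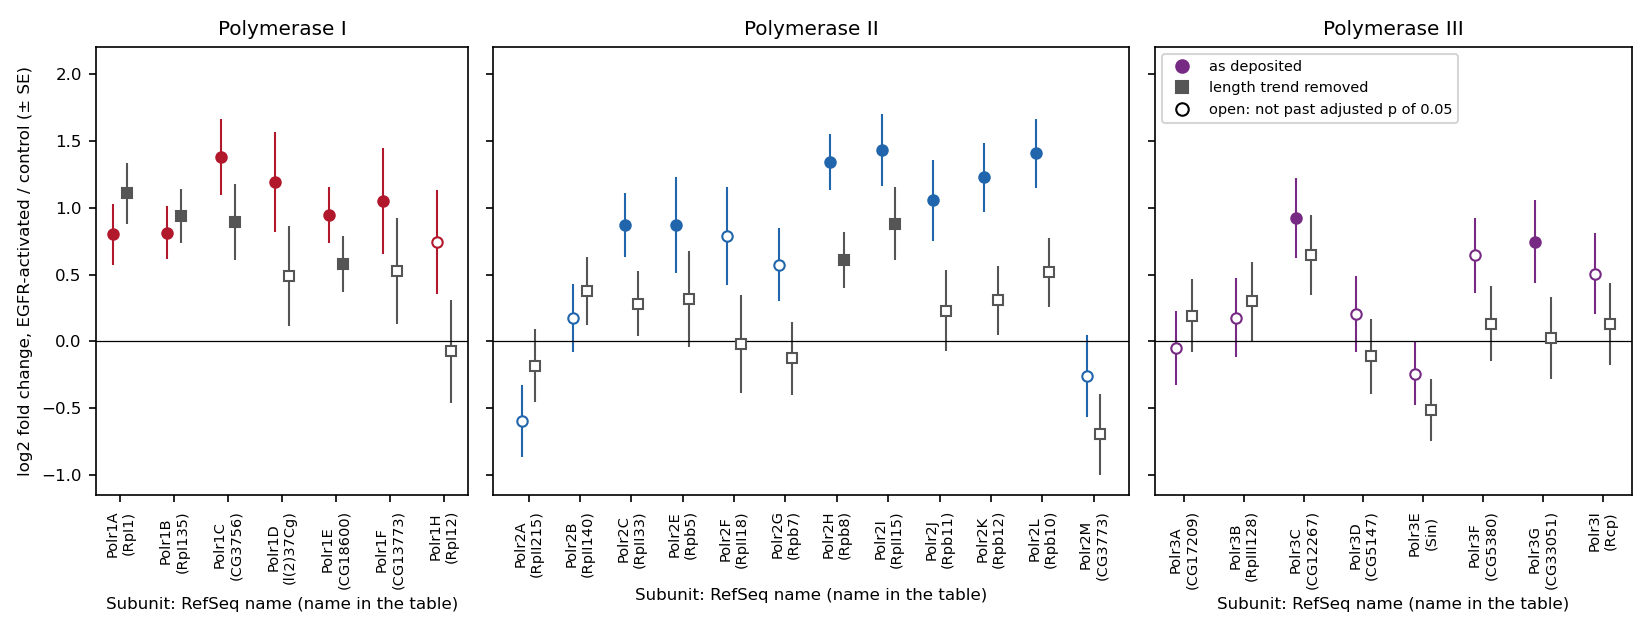
Log2 fold change ± SE of 27 polymerase entries by RefSeq name, with the table's symbol in brackets, as deposited (circles) and after removal of the trend on exonic length (grey squares); filled marks passed an adjusted p of 0.05. The large subunits of all 3 enzymes moved up on removal of the trend, such as RpI1 (0.80 to 1.11) and RpII215 (−0.59 to −0.18). The small subunits of all 3 enzymes moved down.

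Mediator genes mostly did not pass. Of 22 with counts, 3 rose, 0 fell and 19 did not pass, or 13.6% higher, beside the 21.9% for all genes with a mean of at least 100. All 3 belong to the head module, which contacts polymerase II: MED22 rose by 0.96 ± 0.29 (mean 301.6, adjusted p = 0.00390), MED8 by 0.91 ± 0.28 (mean 131, adjusted p = 0.00651) and MED20 by 0.83 ± 0.30 (mean 154, adjusted p = 0.0211). The other head subunits were MED18 at 0.87 ± 0.42, MED6 at 0.35 ± 0.26, MED17, the scaffold of the head, at 0.26 ± 0.22, and MED11 at 0.23 ± 0.34, none past the test. The Mediator median was 0.24, or −0.69 relative to the ribosomal protein genes.

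Modules were assigned from their known place in the yeast or mammalian complex, with these values already in view. The 7 head genes had a median of 0.83, all above 0. The 6 middle genes with counts (MED1, MED4, MED7, MED10, MED19 and MED31) had a median of 0.28 and ran from −0.23 for MED1, a target of nuclear receptors, to 0.61 for MED4. The 4 tail genes with counts (MED15, MED16, MED24 and MED25), which bind activators, had a median of −0.03 and ran from −0.26 to 0.15. MED14, the backbone that joins the modules, was at −0.38 ± 0.24 (adjusted p = 0.206). MED26, MED27, MED28 and MED30, without a yeast counterpart of the same name, ran from 0.00 to 0.61. Median exonic lengths of head, middle and tail genes were 963, 1019.5 and 2760.5 bp.

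The kinase module of Mediator, which stands under other symbols, was lower or not past the test. The gene kto, the MED12 of flies, fell by 0.58 on the log2 scale (SE 0.20, adjusted p = 0.0173). Its partner skd, the MED13 of flies, was at −0.56 ± 0.27 (adjusted p = 0.0868), and the kinase gene Cdk8 and its cyclin CycC were at 0.29 ± 0.26 and 0.39 ± 0.26 (adjusted p = 0.417 and 0.243).

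In TFIID, 3 of 13 tested genes rose and 0 fell, or 23.1% higher, near the 21.9% of all genes with a mean of 100 or more. Tbp, which binds the TATA box, rose by 0.70 ± 0.27 (mean 253, adjusted p = 0.0346). Taf13 rose by 0.76 ± 0.24 (mean 390, adjusted p = 0.00595) and Taf12 by 0.62 ± 0.24 (mean 1089, adjusted p = 0.0347); both encode histone-fold subunits. Of their histone-fold partners, Taf11, which pairs with Taf13, was at 0.67 ± 0.31 (adjusted p = 0.0751), and Taf4, which pairs with Taf12, was at −0.08 ± 0.24 (mean 5415, adjusted p = 0.831). The paralogs Taf10b and Taf10 were at 0.74 ± 0.33 and 0.48 ± 0.33, and Taf8, which pairs with Taf10 proteins, at 0.40 ± 0.26, none past the test (adjusted p = 0.0645, 0.251 and 0.224).

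Of the remaining TFIID subunits under the symbol rule, Taf1, Taf5 and Taf6 lay near 0. Taf1, the largest, was at 0.03 ± 0.18 (mean 2678, 95% interval −0.33 to 0.39), Taf5 at 0.01 ± 0.26 and Taf6 at −0.11 ± 0.24, while Taf2 was at 0.32 ± 0.20 and Taf7 at 0.42 ± 0.25. None of these 5 passed. The TFIID median was 0.45, or −0.48 relative to the ribosomal protein genes. Under other symbols, e(y)1, the TAF9 of flies and the histone-fold partner of Taf6, rose by 0.87 ± 0.25 (adjusted p = 0.00234), and bip2, the TAF3 of flies, was at −0.39 ± 0.20 (adjusted p = 0.117). The TAF6 relative mia, known for its role in the testis, rose by 1.14 ± 0.29 (mean 167, adjusted p = 0.000590). Trf2, a TBP relative that serves promoters without a TATA box, fell by 0.99 on the log2 scale (SE 0.34, mean 21293, adjusted p = 0.0137), and Trf was at 0.59 ± 0.39 (adjusted p = 0.241).

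A pair of genes had too few reads for an adjusted p. The testis-type gene Taf12L had a mean of 3.48, which corresponds to 17 reads over the 4 libraries (1, 1, 6 and 9, in no group order), and was at 0.74 ± 0.54. TfIIA-S-2 had a mean of 2.80, or 11 reads, 5 and 6 in 2 libraries and 0 in the others, and was at −0.14 ± 0.37. At this depth no difference was detectable for either gene. Of the other testis TAFs, can was at a mean of 1.78 and nht and sa were listed at 0.

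Among the other general factors, 4 of 9 tested genes rose and 0 fell, or 44.4% higher, beside the same 21.9%. Ssb-c31a had the largest fold change of the 54, a rise of 1.63 ± 0.24 (mean 264.5, adjusted p = 3.95e-10), equal to 3.09-fold, and the only one past the test under every scaling tried. TfIIS, which helps stalled polymerase II to resume and so acts after initiation, rose by 0.59 ± 0.20 (mean 1427, adjusted p = 0.0129). TfIIB, which links TBP to the polymerase, rose by 0.58 ± 0.21 (mean 928, adjusted p = 0.0187). TfIIEalpha rose by 0.61 ± 0.23 (mean 797, adjusted p = 0.0308), while TfIIEbeta, the other subunit of the factor that brings in TFIIH, was at nearly the same fold with a larger error, 0.59 ± 0.29 (adjusted p = 0.0973).

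Both subunits of TFIIF, the factor that escorts the polymerase, fell short of the threshold, TfIIFbeta at 0.54 ± 0.23 and TfIIFalpha at 0.36 ± 0.25 (adjusted p = 0.0569 and 0.270). The TFIIA subunits, which steady TBP on DNA, lay on either side of 0: TfIIA-S was at 0.41 ± 0.28 and TfIIA-L at −0.22 ± 0.20 (adjusted p = 0.263 and 0.424). The class median was 0.56, or −0.37 relative to the ribosomal protein genes. The proteasome gene Tbp-1 was at 0.63 ± 0.27 and did not pass (mean 4043, adjusted p = 0.0577).

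Ssb-c31a is also the only one of these genes among the 40 factors of the authors' second table. There its Cuffdiff log2 fold change was 1.57 with an adjusted p of 0.0147, and its DESeq2 log2 fold change was 1.63. The authors' entry for an adjusted p under 0.01 by both methods is "N". An RNAi line against it was tested for a phenotype in early follicle cells, and the entry in the authors' deposited table is "none". The same entry stands for 16 of the 26 factors with a line.

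Other parts of the pathway were counted from lists of known members, to be read beside the 18.0% higher and 17.5% lower of all genes tested. TFIIH, the helicase and kinase complex that opens the promoter, had 5 higher, 0 lower and 4 not past the test of 9 in the authors' deposited table: mrn (0.95 ± 0.25), the helicase gene Xpd (0.74 ± 0.23), the kinase gene Cdk7 (0.57 ± 0.21) and its cyclin CycH (0.81 ± 0.29) rose, with Tfb4 (0.99 ± 0.41, adjusted p = 0.0495). Tfb4 did not pass with adjustment over every gene with a p-value (adjusted p = 0.0661) or with centring on the median of all genes (adjusted p = 0.0522). The other helicase gene, hay, was at −0.49 ± 0.23 and did not pass. Of 15 pausing and elongation genes, 3 rose, 2 fell and 10 did not pass, 20.0% higher and 13.3% lower, near the shares of all genes. Within the NELF complex, which holds polymerase II near the promoter, Nelf-A fell by 1.05 on the log2 scale (SE 0.20, adjusted p = 2.11e-06) and Nelf-E rose by 1.04 ± 0.28 (adjusted p = 0.00149). The other NELF genes, NELF-B and TH1, were at 0.23 ± 0.31 and 0.17 ± 0.21 and did not pass (adjusted p = 0.612 and 0.576). Su(Tpl), the elongation factor ELL of flies, fell by 1.11 (SE 0.27, adjusted p = 0.000229), atms, the PAF1 of flies, rose by 0.74 ± 0.23 and spt4 by 0.99 ± 0.36. In SAGA, a coactivator that shares TAFs with TFIID, 1 of 11 rose and 2 fell (9.09% and 18.2%): CG6506 (Spt7) rose by 0.97 ± 0.28, wda fell by 0.85 (SE 0.23) and Ada2b fell by 0.44 (SE 0.18).

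Fold change went with transcript length. Exonic lengths, taken by name from the BDGP6 annotation, were found for all 59 symbols and ran from 462 bp for TfIIA-S-2 to 6876 bp for Taf1. Over the 54 genes, Spearman's rho between fold change and exonic length was −0.64, as a description across genes that come from the same 4 libraries. Over the 7773 genes of known length and a mean of 50 or more it was −0.45. A smooth curve through those genes ran from 0.83 near 500 bp and 0.57 near 1000 bp to −0.19 near 4000 bp and −0.45 near 8000 bp. Ssb-c31a (536 bp), RpII15 (1035 bp), RpI135 (3564 bp) and RpI1 (5078 bp) lie well above that curve, and RpII215 (6736 bp) lies close to it.

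**Figure D3:**
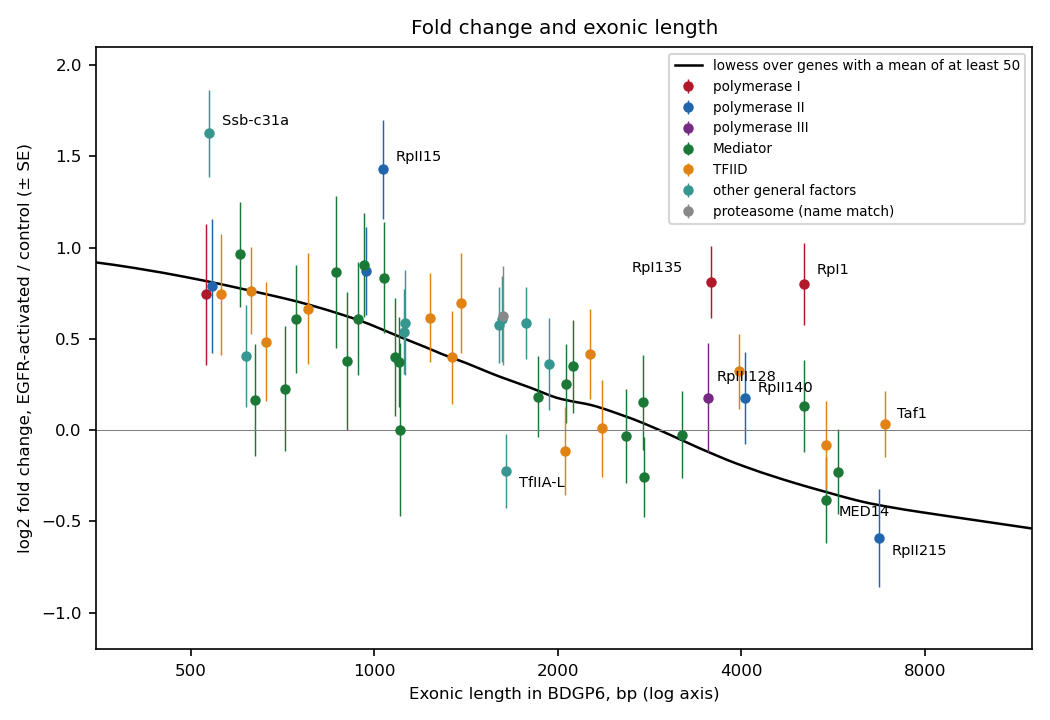
Log2 fold change ± SE of the 54 genes against exonic length on a log axis, coloured by complex, with the lowess curve over 7773 genes. Most points follow the curve from about 0.83 at 500 bp to below 0 past 4000 bp, and RpI1 and RpI135 stand above it at 0.80 and 0.81.

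By length class, 5 of 17 tested genes of the machinery under 1 kb rose (29.4%), against 48.5% of 854 genes of that length with a mean of at least 100. Between 1 and 2 kb, 7 of 17 rose (41.2%), against 30.2% of 2232. Between 2 and 4 kb, RpI135 alone rose of 12 (8.33%), against 16.4% of 2401, and at 4 kb and over RpI1 alone rose of 8 (12.5%), against 5.0% of 1660. None of the 54 fell in any class, while 37.2% of those 1660 genes of 4 kb and over did. Outside the 54, kto (7776 bp), Trf2 (10332 bp), Nelf-A (4648 bp) and Su(Tpl) (6626 bp) fell. Others of 4 kb and over, such as skd (12307 bp) and bip2 (4514 bp), did not pass.

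**Figure D4:**
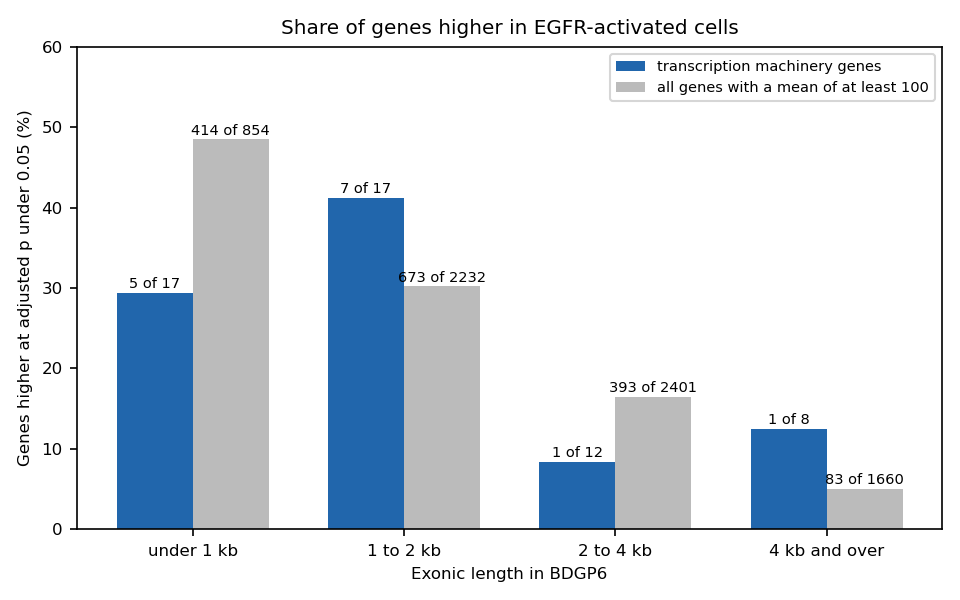
Percent of genes that rose (adjusted p under 0.05), by exonic length, for the machinery (blue) and for all genes with a mean of at least 100 (grey), with counts above the bars. In both, the share is larger below 2 kb than above, and the machinery's bar is lower than the grey bar under 1 kb (29.4% against 48.5%).

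After removal of that trend, 6 of the 54 were higher and 1 was lower at an adjusted p under 0.05, or 11.1% higher, beside 11.3% higher and 16.9% lower over all genes so fitted. Of the 14 genes that rose as deposited, 4 remained: RpI1 at 1.11, RpI135 at 0.94, RpII15 at 0.88 and Ssb-c31a at 0.81 (adjusted p = 1.52e-05, 3.30e-05, 0.00659 and 0.00410). Taf2 and Taf1 became higher, at 0.51 and 0.45 (adjusted p = 0.0453 and 0.0490), and TfIIA-L became lower, at −0.50 (adjusted p = 0.0477). Spearman's rho between the corrected fold change and exonic length over the 54 was 0.32. Longer genes of the 54, RpI1, Taf1 and Taf2 among them, thus tended to lie higher after the correction. No Mediator gene passed, and its median moved from 0.24 to −0.01. RpII215 was at −0.18 (adjusted p = 0.678). By this measure 4 of 7 polymerase I, 2 of 12 polymerase II and 0 of 8 polymerase III entries were higher. Among those 8 the lowest adjusted p in either direction was 0.0864. The 8 leave out the subunits that polymerase III shares, of which CG3756 and Rpb8 alone were higher (adjusted p = 0.00900 and 0.0167). Of the other genes named above, CG3756, CG18600, Rpb8, Tif-IA, Xpd, mrn, atms and mia were still higher. Nelf-A, Su(Tpl), wda and Ada2b were still lower. The genes hay and CG9305 became lower, at −0.56 and −0.69 (adjusted p = 0.0477 and 0.0402). Those that no longer passed were kto, Trf2, e(y)1, Tfb4, Cdk7, CycH, Nelf-E, spt4 and CG6506. Among polymerase subunits, Rpb5, Rpb10, Rpb11, Rpb12, l(2)37Cg, CG13773, CG12267 and CG33051 no longer passed either. The correction also takes away any biology that goes with length.

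When fold changes were centred on the ribosomal protein genes instead, Ssb-c31a alone was higher (0.70) and 22 of the 54 were lower, 40.7%, beside 1.01% higher and 56.8% lower over all genes. The 22 were 12 of Mediator, 5 of TFIID, RpII215, RpII140, RpIII128, TfIIA-L and TfIIFalpha. RpI1 and RpI135 were at −0.13 and −0.12, near the ribosomal protein genes, and RpII215 was at −1.52. The same 0.93 was subtracted from genes of every length, and the length trend was left in. None of the 7 polymerase I subunits passed in either direction under that scaling.

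Levels can be set side by side only per length. Mean normalised counts per kb of exon had a median of 442 over the 54 genes, beside 399.6 over all genes with a mean of at least 100, and carry no error here because the table holds means alone. The highest values were those of Tbp-1 (2485), TfIIA-S (2216), RpII18 (1963), TfIIFalpha (1712), MED10 (1529), MED31 (1483) and MED26 (1246). The 2 catalytic subunits of polymerase II lay close together, RpII140 at 722 and RpII215 at 714, as did RpI1 at 708. RpI135 was at 345 and RpIII128 at 123. Within Mediator the level per kb spread from 56.5 for MED16 to 1529 for MED10, and within tested TFIID genes from 131 for Taf5 to 982 for Taf4. Taf12L and TfIIA-S-2 were at 5.88 and 6.05.

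**Figure D5:**
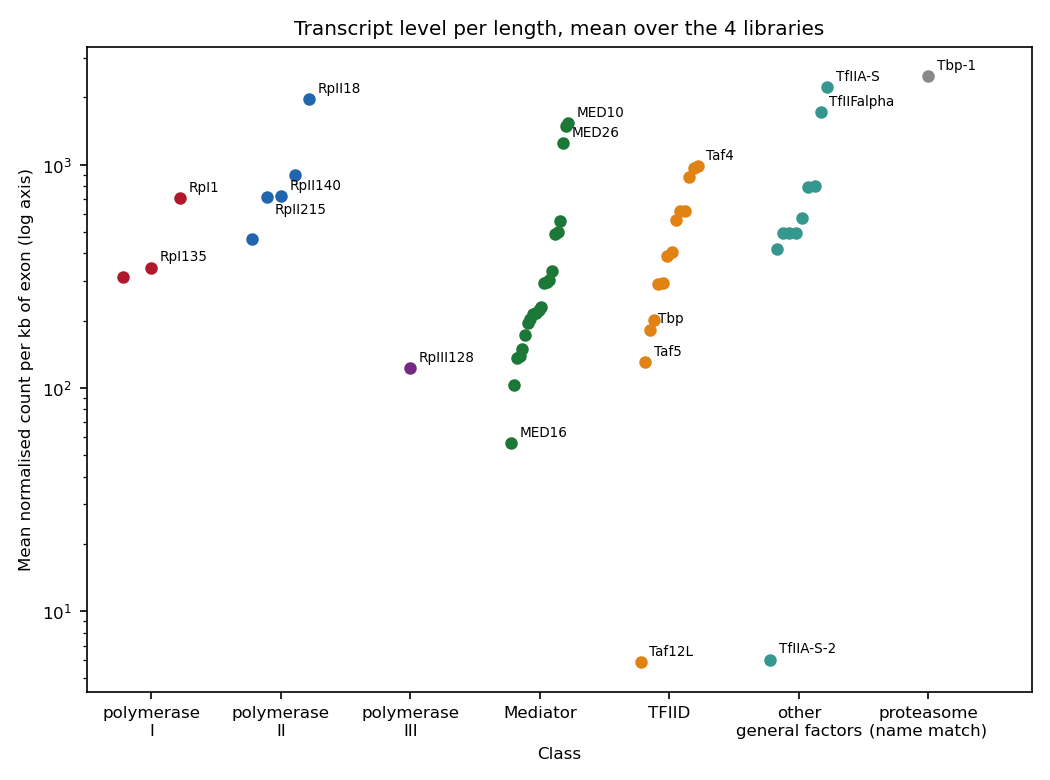
Mean normalised count per kb of exon for the 56 genes on a log axis, by class; each point is a mean over the 4 libraries with no error. Most genes lie between 100 and 1000, with TfIIA-S and RpII18 near the top and the low-count genes Taf12L and TfIIA-S-2 at 5.88 and 6.05.

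Overlap with neighbouring genes bears on which values can be read. In BDGP6, MED9 lies wholly (100%) within exons of CG42518 on its own strand, MED21 shares 26.6% of its exons with Set1 on the other strand, and MED23 overlaps no exon. All 3 were listed at 0. Rpb4, Tfb5, CG33785 and Pbp49, also at 0, are each wholly covered on their own strand. Whether overlap is behind these zeros was not tested, and whether the counting used strand is not stated. Among tested genes of the machinery the largest overlap was 26.8%, of TfIIB with TBC1D16 on the other strand. The largest on the same strand among them was 4.19%, of MED31 with slx1. Of the 14 that rose, TfIIB, MED8, TfIIS, MED22 and Taf13 share over 10% of their exons with another gene. Some tested genes outside the machinery had larger overlaps, up to 84.6% for Lsp2 on the other strand and 78.5% for osk on the same strand. Ada2b, which fell, shares 28.8% with PolI on the other strand.

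Some markers of other cell types, and of follicle cells, moved in the same libraries. Of 9 germ line markers none passed (from −0.43 to 0.46 in the authors' deposited table, SE 0.40 to 0.52; vas was at −0.05). Of 9 muscle sheath markers 6 fell and none rose, with a median of −1.2; Mlc2, 1 of the 6, did not pass under the wider adjustment (adjusted p = 0.0560). Of fat body markers Lsp2 and Rfabg fell by 1.67 and 2.0, Lsd-1 was at 0.22, Fbp2 had a mean of 1.81 and Fbp1 was listed at 0. Of hemocyte markers srp, also a gene of follicle cells, fell by 1.53, Pxn and Hml were at −0.92 and −0.10 without passing, and nimC1 and He had means of 7.03 and 1.5. Of 8 follicle cell markers tj and eya rose and 6 did not pass, among them Fas3 at −0.70 ± 0.33 (adjusted p = 0.0788). Their part in the values of the transcription machinery was not tested, their levels in each group are not held, and in such bulk libraries fewer cells of a type and less RNA per cell cannot be told apart.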

How the data were processed

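Polyadenylated RNA of 4 libraries (2 control, 2 EGFR-activated) was isolated with RNAqueous-Micro and oligo-dT and libraries were prepared by ScriptSeq v2, per the labels' protocols. The submitters' processing notes name TopHat2 2.0.10, HTSeq 0.6.1, DESeq2 1.2.10 and build BDGP5. The counting mode, the strand setting and whether fold changes were shrunken are not given in the sources used here. TfIIA-S-2, with 11 reads, had an SE of 0.37, below the 0.48 of MED30 at a mean of 113.2. Whether shrinkage lies behind such small errors at few reads was not tested. Per the file headers, the authors' deposited table gives for each gene the mean normalised count over all libraries (a signal with no value per library), a log2 fold change with its SE, the Wald statistic (a score equal to fold change over SE), a p-value and an adjusted p. Of 15682 genes, 3032 are listed at 0 and 9409 have an adjusted p. Entries without a gene were not counted: their means add up to 41.2% (alignments not unique), 4.94% (no feature) and 0.896% (ambiguous) of the summed column. Counts and total depth per library are not held, so depth is not given; the planned edgeR test on counts gave way to the authors' DESeq2 adjusted p at 0.05, two-sided.

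Computed here with Python 3.11.15, pandas 2.3.3, numpy 2.4.6, scipy 1.17.1 and statsmodels 0.14.6 were counts and medians per complex, 95% intervals (fold change ± 1.96 SE), a lowess fit (span 0.3) of fold change on log2 exonic length over genes of a mean of 50 or more, and adjusted p-values recomputed over the whole table after that trend or a scaling constant was subtracted. The steps were tested on simulated data. Exonic lengths and exon overlaps are from Ensembl release 115 (BDGP6), matched by symbol and RefSeq synonym, with a length for 98.6% of the genes in the lowess fit's range of means. No sequences or coordinates are given, and 1 item of the outside lists is not reported here. The members and lists were chosen with earlier results of these data known. Named by rule were all members past the threshold, the most abundant and the most changed of each complex, those without an adjusted p, up to 4 called genes per outside list, and Egfr; other genes named were chosen after their values were seen.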

Additional observations from a re-analysis of the deposited data

How the results depend on the processing

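The same 14 genes were higher and none lower with adjustment over every gene with a p-value, over genes of a mean of 50 or more, and with centring on the median of all genes; of the called genes outside the 54, Rpb5, CG33051, Tfb4 and Mlc2 lost their calls under the first (adjusted p = 0.0585, 0.0619, 0.0661 and 0.0560) and Tfb4 under the third (0.0522). At an adjusted p under 0.01, 8 were higher, with 1 left in TFIID and 1 among the other general factors. At 0.1, 22 were higher (5 of Mediator, 5 of TFIID) and 1 lower, in polymerase II. With the length trend removed, 6 were higher and 1 lower: 1 of polymerase II, 0 of Mediator and 1 of the other general factors higher, and 1 of the last lower. The medians then became 0.089 for all, 0.28 for polymerase II, 0.0024 for TFIID and 0.17 for the other general factors. With centring on the ribosomal protein genes, 1 was higher and 22 lower: 0 higher in polymerase I, polymerase II, Mediator and TFIID and 1 in the other general factors, against 2 lower in polymerase II, 1 in polymerase III, 12 in Mediator, 5 in TFIID and 2 in the other general factors. The medians became −0.53 for all, −0.13, −0.14 and −0.75 for polymerases I, II and III, −0.69 for Mediator, −0.48 for TFIID and −0.37 for the other general factors. Genes called higher as deposited that turned negative under that centring, none of them then past the test, were RpI1 −0.13, RpI135 −0.12, RpII33 −0.061, MED8 −0.026, MED20 −0.10, Tbp −0.23, Taf12 −0.31, Taf13 −0.17, TfIIB −0.36, TfIIEalpha −0.32, TfIIS −0.34, Rpb5 −0.061, CG12267 −0.0070, CG33051 −0.19, Cdk7 −0.36, CycH −0.12, Xpd −0.19, atms −0.19, e(y)1 −0.062 and the follicle cell markers tj −0.064 and eya −0.030. These shifts follow from subtracting 0.93 from every gene; which scaling is nearer the RNA content of the cells was not tested. No paired analysis was possible because the deposited table holds no values per library. For the same reason DESeq2 against edgeR, other size factors, a count filter and leaving out each replicate were not run, so whether a single library decides any call is not known. With 2 libraries a group and a median SE of 0.26, the smallest fold change past the threshold among the 54 was 0.58, of TfIIB.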
